A study of Rattus norvegicus with 3 samples.

Results

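Scavenger receptors bind many unrelated ligands at the cell surface, among them oxidised lipoproteins, bacteria, silica and other particles not coated with antibody or complement, and carry them into the cell. On alveolar macrophages, the phagocytes of the lung surface, the class A receptors MARCO and SR-A are known for the uptake of inhaled dust, whereas the mannose receptor clears glycoproteins and microbes that carry mannose. The members were 9 rat genes listed by name as scavenger or mannose receptors, namely Marco, Msr1, Scara5, Cd36, Scarb1, Olr1, Cd163, Mrc1 and Stab1, and every probe whose platform symbol or updated symbol was one of them was taken. This gave 11 probes of 8 genes, out of 41103 probes and 15925 named genes in all. No probe was named for Stab1, so it was not analysed here.

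The study exposed NR8383 cells, an established rat alveolar macrophage line, for 24 h to one of a pair of single-wall carbon nanotube preparations described as free of impurities. The CNT-1 and CNT-2 groups received nanotubes at 0.1 mg/mL, dissolved with bovine serum albumin at 1 mg/mL, and the control group is labelled both as a solvent control with albumin and as untreated, so the labels do not settle whether it received albumin. A cell line in culture is a model without the surfactant and the neighbouring cells of the lung, and the sources used here do not say how the CNT-1 and CNT-2 tubes differ. RNA was measured on 1-colour Agilent arrays, and each group has 1 deposited column of values.

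The values are differences from a baseline set for each probe, taken to be on a log2 scale. A gene's level is therefore not in the data, members cannot be ranked against each other by level, and the identity of the cells could not be checked against their markers. With 1 column per group no test between conditions was possible and no p-value is given, and every "higher" or "lower" describes these columns only. A difference of at least 1 log2 unit, which is 2-fold on that scale, was counted as past the threshold. The spread given for genes with several probes is the SD between probes. It compares probes on the same columns and holds no variation between cultures or arrays. Its median, over genes with several probes, was 0.08 in CNT-1 minus control, against 0.19 in CNT-2 minus control, and CNT-2 minus CNT-1 had 0.17. The 3 differences share columns, so each is given beside the others and none counts as a repeat of another.

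Mrc1, which encodes the mannose receptor CD206, was the member furthest from its control value, and it was lower in both nanotube groups. Olr1, which encodes the lectin-like receptor LOX-1 for oxidised low-density lipoprotein, was higher in CNT-2 and lower in CNT-1 than in the control as deposited. Scara5, a class A receptor known in the mouse to bind ferritin, had the same order of columns, with a smaller distance between CNT-2 and CNT-1. The other 5 measured genes, Marco, Msr1, Cd36, Scarb1 and Cd163, stayed within the threshold in every comparison.

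The sequences upstream of the start of Mrc1 and Olr1 are shown because these genes lay furthest apart in CNT-2 minus CNT-1. Both are the 250 bases before the annotated start in RefSeq, build GRCr8, read in the direction of the gene, at chr17:82157475-82157724 on the plus strand for Mrc1 and at chr4:164634548-164634797 on the minus strand for Olr1. Capitals mark matches to any of 5 short motifs, searched on both strands.
Mrc1: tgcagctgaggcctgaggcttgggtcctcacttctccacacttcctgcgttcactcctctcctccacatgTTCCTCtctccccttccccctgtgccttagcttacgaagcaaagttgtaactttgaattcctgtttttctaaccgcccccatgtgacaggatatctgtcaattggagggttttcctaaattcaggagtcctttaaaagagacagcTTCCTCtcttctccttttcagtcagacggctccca
Olr1: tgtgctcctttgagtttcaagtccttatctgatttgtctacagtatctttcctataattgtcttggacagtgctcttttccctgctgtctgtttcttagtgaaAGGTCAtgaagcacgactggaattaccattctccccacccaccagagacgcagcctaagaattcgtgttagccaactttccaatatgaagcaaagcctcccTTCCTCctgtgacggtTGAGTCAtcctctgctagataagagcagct
The motifs were GAGGAA, the core bound by PU.1 and other ETS factors of myeloid cells, TGANTCA, bound by Fos and Jun dimers, AGGTCA, the half-site of nuclear receptors, TATAAA, the TATA box, and CACGTG, the E-box. In the Mrc1 window GAGGAA matched on the minus strand at positions -180 and -35, counted from the start to the leftmost base of the match, and no other motif matched. In the Olr1 window TGANTCA matched at -30, GAGGAA at -46 on the minus strand and AGGTCA at -147, and no matches overlapped. Promoters were available for 6 members, among them Stab1, which had no probe, but not for the measured members Msr1, Scarb1 and Scara5. GAGGAA was present in 5 of these 6, those of Marco, Cd36, Olr1, Mrc1 and Stab1 but not Cd163, against 23.3% of all 33469 promoters. TGANTCA and AGGTCA were each in 1 of 6, that of Olr1, against 6.34% and 14.1% of all promoters. TATAAA was in 2 of 6, those of Marco and Cd36, against 12.9%, and CACGTG was in 0 of 6 against 5.59%. These matches describe the letters of the windows and say nothing about binding in these cells.

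Mrc1 had a value of -2.19 in CNT-2, -0.42 in CNT-1 and 0.05 in the control, as the mean over 2 probes. The CNT-2 column stood far below the other columns on each probe. The values were -2.24 and -2.14 in CNT-2, against -0.44 and -0.40 in CNT-1 and 0.09 and 0.002 in the control. The 2 probes read the same RNA in each column and are not replicates. CNT-2 minus control was -2.24 ± 0.13 (SD, 2 probes), which on a log2 scale leaves 0.212 of the control signal. Among all named genes 0.73% were lower than Mrc1 in that comparison. CNT-2 minus CNT-1 was -1.77 ± 0.05 (SD, 2 probes), with 0.82% of genes lower, and CNT-1 minus control was -0.47 ± 0.09 (SD, 2 probes), with 9.04% of genes lower. The negative-control probe, which matches no transcript and so shows the background, was itself at -0.27 in CNT-1 minus control and at -0.10 in CNT-2 minus control. Mrc1 in CNT-2 minus control stayed past the threshold under every alternative tried, between -2.68 and -1.33, whereas CNT-2 minus CNT-1 came to -0.77 with quantile normalization.

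**Figure D1:**
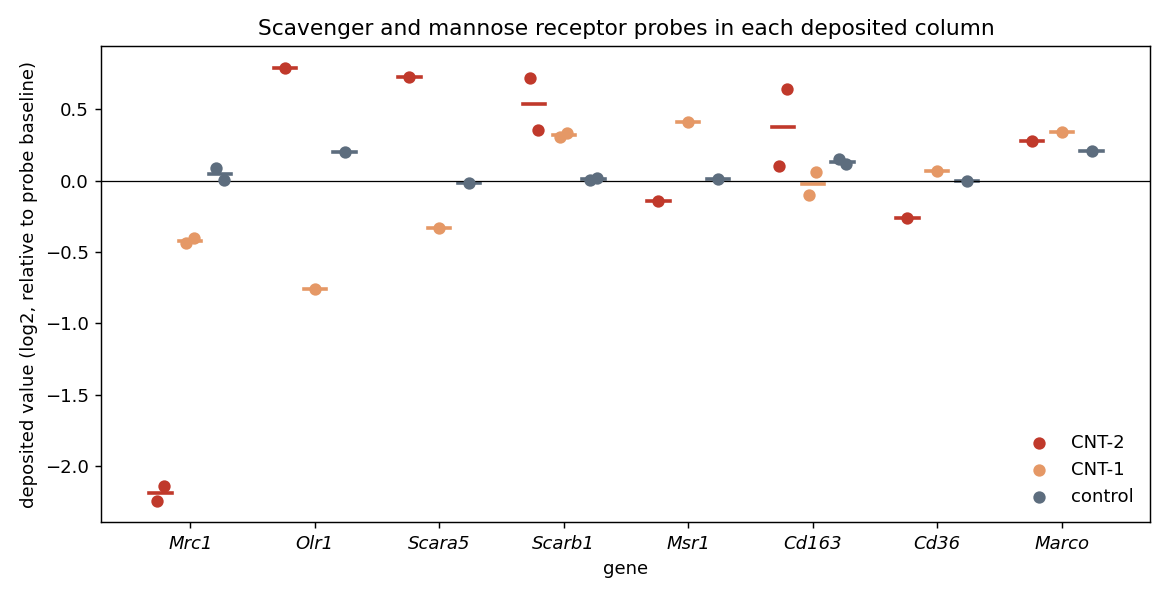
Deposited log2 values of each receptor probe (points) in the CNT-2, CNT-1 and control columns, with the mean over the probes of a gene as a bar. The Mrc1 probes in CNT-2 lie at -2.24 and -2.14, below all other points, and Olr1 and Scara5 have CNT-2 above and CNT-1 below the control.

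Of the class A receptors, Marco, the collagen-like receptor for particles and bacteria, had values of 0.28 in CNT-2, 0.34 in CNT-1 and 0.21 in the control on its 1 probe. All columns lay within 0.13 of each other, the narrowest range of the 8 members. CNT-1 minus control was 0.13 and CNT-2 minus control 0.07. The sign of these values was not settled, since quantile normalization gave -0.24 and -0.65, and in CNT-2 minus control centring on the median, on the 75th percentile or on spike-in probes also gave negative values.

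Msr1, which encodes SR-A, the receptor for acetylated lipoprotein and particles, had values of -0.14 in CNT-2, 0.41 in CNT-1 and 0.01 in the control. The CNT-1 column was thus the high one. CNT-1 minus control was 0.40, with 6.91% of genes higher, CNT-2 minus control was -0.15 and CNT-2 minus CNT-1 was -0.55, with 11.3% of genes lower. Each of these 3 values kept its sign under the alternatives tried, with CNT-2 minus CNT-1 between -0.94 and -0.55.

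Scara5 had values of 0.73 in CNT-2, -0.33 in CNT-1 and -0.01 in the control on its 1 probe. CNT-2 was high and CNT-1 low, on either side of the control. CNT-2 minus control was 0.74 and CNT-1 minus control was -0.31, close to the -0.27 of the negative-control probe. CNT-2 minus CNT-1 was 1.06, past the threshold, but each of the 4 other scalings gave less than 1, between 0.67 and 0.94, so the call did not hold.

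Of the class B receptors, Cd36, which takes up oxidised lipoprotein and fatty acids, had values of -0.26 in CNT-2, 0.07 in CNT-1 and 0.00 in the control. CNT-2 was the low column. CNT-2 minus control was -0.26, CNT-1 minus control 0.07 and CNT-2 minus CNT-1 -0.33, and 60.9% of all genes were at least as far from 0 as Cd36 in CNT-2 minus control.

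Scarb1, which encodes SR-BI, the receptor for high-density lipoprotein that mediates selective cholesterol uptake, had means of 0.54 in CNT-2, 0.32 in CNT-1 and 0.01 in the control over 2 probes. Both nanotube columns were above the control on each probe, with 0.72 and 0.36 in CNT-2, against 0.31 and 0.33 in CNT-1 and 0.01 and 0.02 in the control. CNT-2 minus control was 0.52 ± 0.27 and CNT-1 minus control 0.31 ± 0.006 (SD, 2 probes each). Scarb1 was the only measured member, apart from Marco, whose nanotube columns were both above the control, and unlike Marco it stayed so under all alternatives, between 0.09 and 0.71 in CNT-2 and between 0.25 and 0.45 in CNT-1. CNT-2 minus CNT-1 was 0.22 ± 0.27 (SD, 2 probes), a difference smaller than the spread between the probes, and it turned negative with 75th percentile, quantile and spike-in scaling.

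Olr1 had values of 0.79 in CNT-2, -0.76 in CNT-1 and 0.20 in the control on its 1 probe. The nanotube columns thus stood on opposite sides of the control. CNT-2 minus CNT-1 was 1.55, with 3.73% of genes higher. This difference stayed past the threshold under every alternative that kept the probe, between 1.17 and 1.55. The alternative with only probes within 0.1 of 0 in the control dropped it. Its control value of 0.20 stood near the 0.16 of the negative-control probe, but over the columns it lay up to 0.74 from that probe. CNT-1 minus control was -0.96, just inside the threshold, with 2.32% of genes lower, and 75th percentile centring (-1.01) and quantile normalization (-1.54) took it past. CNT-2 minus control was 0.59, but quantile normalization gave -0.36, so CNT-1 below the control and below CNT-2 was common to all scalings, and CNT-2 above the control was not.

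Cd163, which encodes the receptor for haemoglobin bound to haptoglobin, had means of 0.38 in CNT-2, -0.02 in CNT-1 and 0.13 in the control over 2 probes. Its probes differed, since the first was at 0.11 in CNT-2, -0.10 in CNT-1 and 0.15 in the control and the second at 0.65, 0.06 and 0.12 in the same columns. The first lay within 0.052 of the negative-control probe in each column, which itself was at 0.05, -0.11 and 0.16 there. The pattern of this first probe over the columns was thus close to that of background. Values centred on each probe do not show how much signal it had. CNT-2 minus control was 0.24 ± 0.41 and CNT-1 minus control -0.15 ± 0.14 (SD, 2 probes each), the first inside the spread between the probes and the second about the size of it. Without the background-like probe CNT-2 minus control was 0.53.

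Counted together, 0 of 8 measured members were past the threshold in CNT-1 minus control in either direction, against 1.16% of all named genes higher and 2.15% lower. In CNT-2 minus control 1 of 8 was lower, Mrc1, against 6.56% of all genes, and 0 of 8 were higher, against 10.1%. In CNT-2 minus CNT-1 2 of 8 were higher, Olr1 and Scara5, against 9.32% of all genes, and 1 of 8 was lower, Mrc1, against 4.65%. With 8 members these counts are too small to set against the shares of all genes, and nothing is read from them about the receptors as a group. The members' median was -0.04 in CNT-1 minus control and 0.16 in CNT-2 minus control, beside -0.04 and 0.04 over all genes, and 0.08 in CNT-2 minus CNT-1 beside 0.15. None of these medians kept its sign under all scalings, since spike-in centring gave 0.004, -0.07 and -0.19 in that order. Scaling also shifted all genes, whose median in CNT-2 minus control became -0.40 with 75th percentile centring and -0.18 with spike-in centring.

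**Figure D2:**
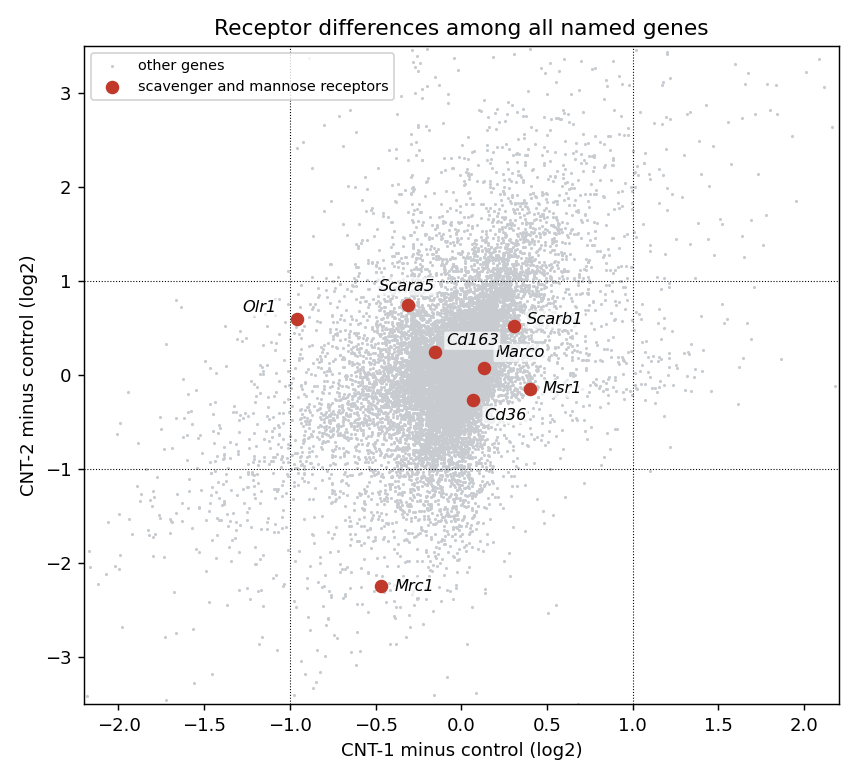
Each named gene by CNT-1 minus control (horizontal, log2) and CNT-2 minus control (vertical, log2), with the 8 measured receptors in red, other genes in grey and dotted lines at the threshold. Mrc1 is the receptor below the lower line at -2.24, Olr1 lies beside the left line at -0.96, and the axes leave out 158 genes with larger differences.

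The order of the columns differed among members. As deposited, the control was highest only for Mrc1, CNT-2 for Scarb1, Olr1, Cd163 and Scara5, and CNT-1 for Marco, Msr1 and Cd36. With quantile normalization the control was highest for Marco, Olr1 and Cd163 as well, and with 75th percentile centring also for Cd163. Scarb1 had CNT-1 above CNT-2 with 75th percentile, quantile or spike-in scaling. The distance between the highest and the lowest deposited column was 2.24 for Mrc1, 1.55 for Olr1 and 1.06 for Scara5. It was 0.55 for Msr1, 0.52 for Scarb1, 0.39 for Cd163, 0.33 for Cd36 and 0.13 for Marco.

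**Figure D3:**
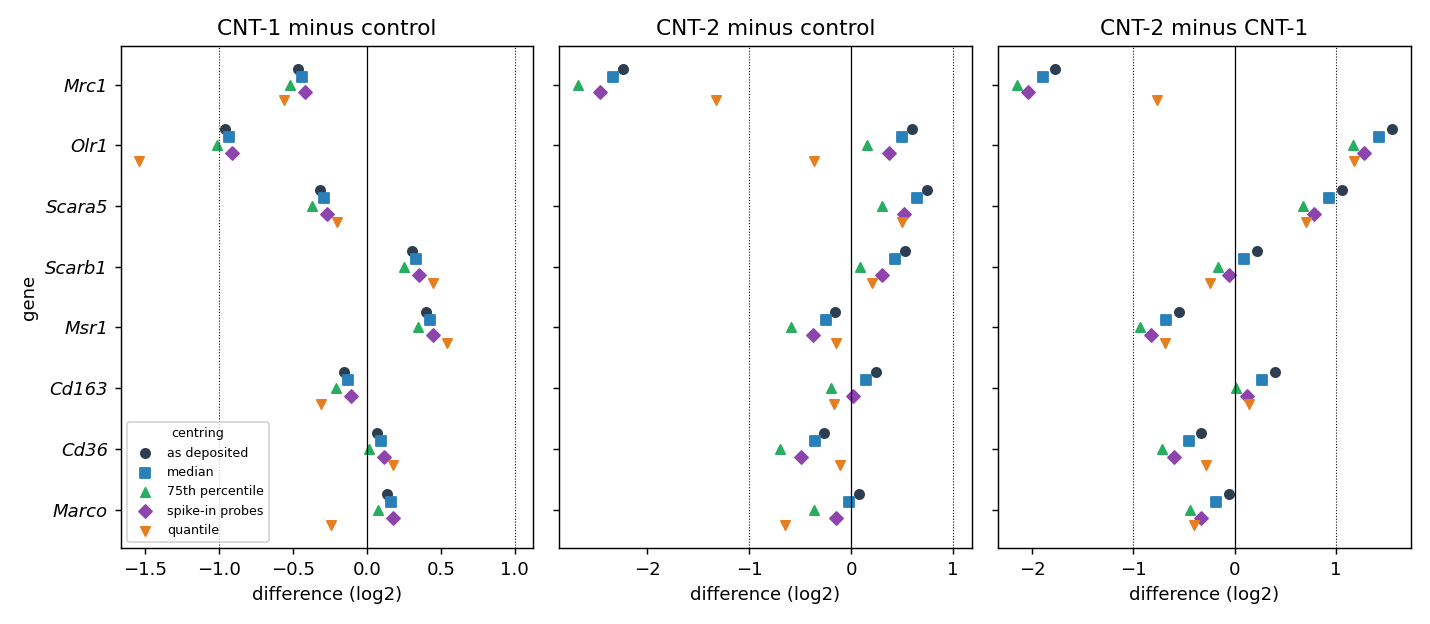
Difference of each receptor (log2) as deposited and under 4 other scalings of the columns, one panel per comparison, with dotted lines at the threshold. Mrc1 stays left of -1 in CNT-2 minus control under all 5, between -2.68 and -1.33, while Scara5 passes 1 in CNT-2 minus CNT-1 as deposited only.

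By the distance over both differences from control, the genes most like Mrc1 were Fap, a serine protease of fibroblasts, at -0.42 in CNT-1 minus control and -2.21 in CNT-2 minus control, with a distance of 0.05. Next came Scp2, a sterol carrier protein of peroxisomes, at -0.42 and -2.28, with a distance of 0.07, and Slc9a5, a sodium and proton exchanger, at -0.45 and -2.31, with a distance of 0.07. This likeness rests on 2 differences from 3 columns, and 29 genes lay within 0.25 of Mrc1. Other members were not past the threshold against control, so no such genes were sought for them.

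Genes around the receptors were read from 8 further lists, whose counts in CNT-2 minus control stand beside 10.1% of all named genes higher and 6.56% lower, and in CNT-1 minus control beside 1.16% and 2.15%. The lists are small, and nothing particular to a list is read from its count. Cd68, Fabp4, Pparg and Spi1 each stand on 2 lists, so Fabp4 is counted among both the lipid handling genes and the macrophage markers. Of 15 other measured genes of scavenger receptor classes, 0 were past the threshold in CNT-2 minus control in either direction, although 1 was lower with median or quantile scaling and 2 with 75th percentile or spike-in centring. In CNT-1 minus control 1 was lower, Cd5, a lymphocyte receptor with scavenger domains, at -1.69. Scarb2, the lysosomal relative of Scarb1 and Cd36, was at 0.97 and Scarf1, an endothelial receptor for modified lipoprotein, at -0.93 in CNT-2 minus control, the ends of the range in that list. The median of the list in CNT-2 minus control was -0.11, and it ranged from -0.55 with 75th percentile centring to 0.02 with quantile normalization.

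Of 18 genes for the uptake of apoptotic cells, 2 were higher and 2 lower in CNT-2 minus control, and with 75th percentile centring 1 was higher and 5 lower. Gas6, the bridging ligand of the TAM receptors, was at 4.29 ± 0.25 (SD, 2 probes), and Itgav, the integrin alpha V subunit, at 1.27. Axl, a TAM receptor that binds Gas6, was at -1.45 ± 0.03 (SD, 2 probes), and Mfge8, a bridge to integrins, at -1.43. The calls of Axl, Mfge8 and Itgav were lost with quantile normalization, and that of Itgav also with 75th percentile centring. In CNT-1 minus control 1 of 18 was lower, Mfge8 at -1.04, which spike-in centring brought to -0.99.

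Of 20 measured genes of the endocytic machinery, 17 were above 0 in CNT-2 minus control, beside 53.5% of all genes, with 0.48 as the list median beside 0.04 over all genes. With 75th percentile centring the list median was 0.04 as well and that of all genes was -0.40. One was lower past the threshold, Dab2, a clathrin adaptor for lipoprotein receptors, at -1.97, and 1 was higher, Eea1, a tether of early endosomes, at 1.05 ± 0.44 (SD, 3 probes), which fell below 1 under all 4 other scalings. In CNT-1 minus control 0 of 20 were past the threshold in either direction. Of 19 measured transcription regulators linked to these receptors, 0 were past the threshold in any comparison as deposited. With 75th percentile centring 1 was lower in CNT-2 minus control and 2 in CNT-2 minus CNT-1, with spike-in centring 1 was lower in CNT-2 minus CNT-1, and with quantile normalization 1 was higher in CNT-1 minus control. Pparg, the nuclear receptor that drives Cd36 in macrophages, was at -0.74 in CNT-2 minus control and at 0.06 in CNT-1 minus control, Spi1, which encodes PU.1, was at 0.46 and 0.11, and Irf4, a factor of alternative macrophage activation, was at 0.91 and 0.28.

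Of 13 genes of receptor ligands, sheddases and haem breakdown, 3 were higher and 1 lower in CNT-2 minus control and 0 in CNT-1 minus control. With 75th percentile centring 2 were higher and 3 lower in CNT-2 minus control, and with quantile normalization 0 and 1. Sparc, a matrix protein that stabilin-1 takes up, was at -2.27. Hmox1, which breaks down haem delivered through Cd163, was at 1.63, the proprotein protease Furin at 1.45 and the phosphatidylserine-binding Anxa5 at 1.06 ± 0.08 (SD, 2 probes), with Hmox1 and Furin below the threshold under quantile normalization and Anxa5 under all 4 other scalings. Of 13 lipid handling genes measured, 3 were higher and 0 lower in CNT-2 minus control, and 1 was lower with 75th percentile or spike-in centring. They were the fatty acid binding proteins Fabp4 at 3.96 and Fabp5 at 2.14 and the cholesterol exporter Abca1 at 1.33, the last below the threshold with quantile and 75th percentile scaling. Fabp5 was also the 1 gene past the threshold in CNT-1 minus control, at 1.09.

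**Figure D4:**
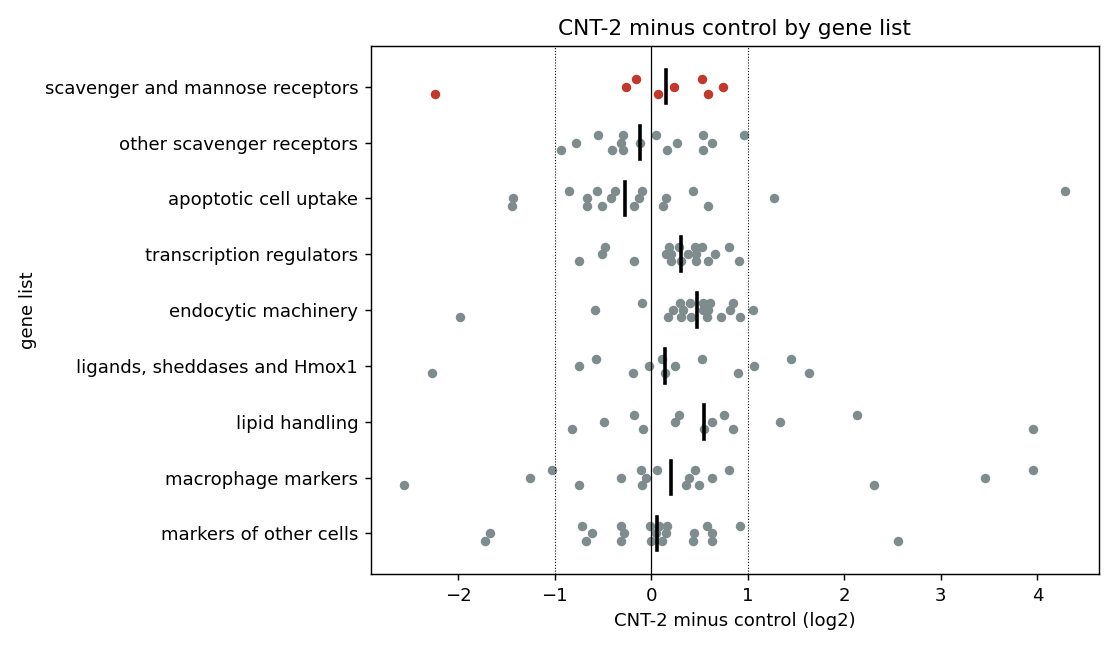
CNT-2 minus control (log2) for every measured gene of the 9 lists, with the list median as a black bar and dotted lines at the threshold. Among the receptors, shown in red, Mrc1 at -2.24 is the single point outside the lines.

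Of 18 measured macrophage markers, 3 were higher and 3 lower in CNT-2 minus control, with Fabp4 at 3.96, the complement receptor subunit Itgam at 3.46 and the transcription factor Bhlhe41 at 2.31, against the Fc receptor Fcgr1a at -2.56 ± 0.61, the growth factor receptor Csf1r at -1.25 ± 0.60 and the complement component C1qa at -1.02 ± 0.05 (SD, 2 probes each). Quantile normalization brought C1qa to -0.17, and C1qb on the same list was at -0.09 as deposited. With 75th percentile centring 3 markers were higher and 4 lower. In CNT-1 minus control Itgam was at 1.02, or 0.96 with 75th percentile centring, and Car4, a carbonic anhydrase, was at -1.08. Quantile normalization gave 2 markers higher and 2 lower in that comparison. Of 22 measured markers of other lung and blood cells, 1 was higher and 2 lower in CNT-2 minus control, and with 75th percentile centring 5 were lower. These were the proteoglycan Dcn at 2.56, the lymphocyte gene Nkg7 at -1.67, or -0.89 with quantile normalization, and the endothelial gene Vwf at -1.73 ± 1.66 (SD, 2 probes). In CNT-1 minus control 1 was higher, Epcam, an epithelial adhesion protein, at 1.61, and 2 were higher with median, spike-in or quantile scaling. S100a8 was past the threshold only in CNT-2 minus CNT-1, at 1.11 ± 0.90 (SD, 3 probes, 2 of them background-like). The other scalings gave it less than 1, between 0.60 and 0.99. Summed levels of these markers cannot be formed from values centred on each probe, and their part in the values of Mrc1, Olr1 and Scara5 was not tested. Fewer cells expressing Mrc1 and less Mrc1 RNA per cell cannot be told apart in RNA from whole cultures.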

How the data were processed

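Per the labels' protocols, total RNA of NR8383 cells was labelled with Cy3 for 1-colour arrays. The submitters' processing notes name Agilent Feature Extraction 10.7.3.1. The deposited values are differences on a presumed log2 scale from an unstated baseline per probe, from -5.71 to 8.82. The sources used here give neither the normalization, the baseline nor the direction, nor say whether 1 array or several stand behind a column. Higher values were read as more RNA. All labels carry the replicate number 4. The number of arrays limits the precision.

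Probes were named through the platform annotation, which gave 20932 probes 1 symbol, 0 several and 20171 none. Of these symbols, 17424 were matched by accession to RefSeq (GRCr8), 3104 were current, 396 were older and updated, and 8 could not be matched. A gene's difference is the mean over its probes. Background-like means a control value at most 0.02 from that of the negative-control probe. Members and lists were chosen with earlier results of these data known. All members were named. From each other list up to 5 genes past 1 log2 unit in any comparison were named, those furthest from 0 in CNT-2 minus control. C1qa and Car4, which complete a count, and C1qb, Scarb2, Scarf1, Pparg, Spi1 and Irf4 were named after their values were seen. The calculation, in Python 3.11.15 with pandas 2.3.3, was tested on simulated data. These had large shifts and no difference in scaling between columns, so the test checks the code and not the calls made here. Alternatives were other scalings, probe rules and thresholds.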

Additional observations from a re-analysis of the deposited data

How the results depend on the processing

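No paired analysis was possible because each group has 1 column. For single members 195 of 247 values under the alternatives moved by less than a set spread, and 52 moved by more. This spread was the median SD between probes over all genes with several probes, or the gene's own SD where larger. Members with 1 probe have no SD of their own, so the median alone was used for them. Of the 247, 12 changed sign, and no value past the threshold did. Marco, Msr1, Cd36, Olr1 and Scara5 have 1 probe, so alternatives in how probes are chosen or averaged could not move their values. The count of 195 is therefore no measure of stability. Every member moved by more with quantile normalization in CNT-1 minus control and with 75th percentile centring in CNT-2 minus control. The members' median in CNT-1 minus control, -0.04, was -0.22 with quantile normalization and 0.069 when only probes near 0 in the control were kept, which leaves 5 members. In CNT-2 minus control it was 0.16, and -0.28 with 75th percentile centring, -0.16 with quantile normalization, -0.068 with spike-in centring and -0.15 when only probes near 0 in the control were kept. In CNT-2 minus CNT-1 it was 0.08, and -0.31, -0.26, -0.19 and -0.33 under these alternatives in the same order. Members lower in CNT-1 numbered 1 in place of 0 with 75th percentile centring, quantile normalization, the 1.5-fold threshold or a natural log scale. Members higher in CNT-2 minus control numbered 2 with the 1.5-fold threshold and 1 on a natural log scale, in place of 0. In CNT-2 minus CNT-1 members higher numbered 1 in place of 2 with median, 75th percentile, quantile or spike-in scaling, and also with only the probes near 0 in the control, and members lower numbered 0 in place of 1 with quantile normalization. The cause was not tested. Among all named genes past the threshold the higher share was 60.7% in CNT-2 minus control, but 26.8% after 75th percentile centring and 42.1% after spike-in centring. In CNT-2 minus CNT-1 it was 66.7%, and 55.7% with median, 33.0% with 75th percentile, 42.4% with spike-in and 52.2% with quantile scaling. In CNT-1 minus control it was 35.0%, and 46.0% with quantile normalization, 55.6% without subtracting the control and 52.0% when only probes near 0 in the control were kept. Quantile normalization turned the 184 higher and 342 lower genes in CNT-1 into 603 and 709, and 75th percentile centring the 1616 and 1045 in CNT-2 into 838 and 2295. In the control 72.6% of named probes lay within 0.1 of 0, so that column was narrow. Quantile normalization gives all columns 1 distribution and so widens narrow columns and narrows wide ones. The 75th percentile of a column depends on its spread as well as its level. How far calls gained or lost under these scalings follow from this was not tested. Members with 1 probe and background-like probes limit what these columns can show.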
